A study of Mus musculus with 18 samples.

Results

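The data described here are 695 stretches of the mouse genome that were listed as open chromatin with a G9a inhibitor, and not with vehicle, in at least 2 of 3 populations of lung epithelial cells. They are 5.34% of the 13015 merged regions that were listed with inhibitor only (G9ai-only) in any population, and the 10 lists together merge into 33312 regions. The assay was ATAC-seq: a transposase cuts and tags DNA that is not wrapped in nucleosomes, and the tagged DNA is sequenced. The animals were adult C57BL/6 mice, 6 to 12 weeks old, and every library was made from 10000 cells sorted as CD31/45-, Epcam+ and Sca-1+, then by CD24 into CD24- (CD24neg below), CD24low and CD24hi cells. The groups were therefore G9ai and vehicle in CD24neg, G9ai and vehicle in CD24low, and G9ai and vehicle in CD24hi, with 3 mice per arm; the sources used here do not name the inhibitor, its dose or its route. Of 18 samples, 10 have a peak list. These are G9ai replicates 2 and 3 in all 3 populations, with 2 vehicle libraries (replicates 2 and 3) for CD24low cells but 1 (replicate 3) for CD24neg and 1 for CD24hi cells. The other 8 samples were not analysed here.

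G9a, the product of Ehmt2, is a methyltransferase that works as a heterodimer with GLP and places mono- and dimethyl marks on lysine 9 of histone H3. Dimethylated H3K9 is found over silent genes and broad late-replicating domains, and it is bound by repressive reader proteins. Inhibitors of the enzyme lower the mark, and lung epithelial progenitors carrying Epcam and Sca-1 include airway cells that can give rise to secretory and multiciliated cells. Accessibility in a bulk list does not separate more cells with an open site from a more open site per cell. No expression was measured, and treatment-specific peak lists do not allow the sorted cell types to be checked against their markers.

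A region was called G9ai-only in a population when merged peaks there held a peak of both G9ai libraries and none of any vehicle library. That call was made for 4015 of 12957 merged regions in CD24neg (31%), 7172 of 9969 in CD24low (71.9%) and 2675 of 15687 in CD24hi (17.1%). Vehicle-only calls were 67.8%, 25.1% and 82.1% of the same regions. G9ai-only regions of different populations that overlapped by at least 1 bp were joined, and 124 of 819 such joined regions (15.1%) were left out because they overlapped a vehicle-only region of some population. The members were chosen by these peak calls, so their presence in G9ai and absence in vehicle is a description and carries no test. The lists are themselves treatment-specific selections, 3.03% to 13.2% of the highest peak number in each library, and lengths ran from 2552 to 12985 peaks. Library names share a prefix across populations, 1 for G9ai replicate 2, 1 for G9ai replicate 3 and 1 for vehicle replicate 3; the sources used here do not say what it stands for, so populations may share mice.

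Sequence is shown for 8 members that overlap a listed transcription start, because they let the open stretch be read at the start of a named gene. Each line gives the 250 bases before the most upstream listed start that a member overlaps, 5′ to 3′ on the gene's strand, from RefSeq on GRCm38.p6, the same build as mm10. Capitals mark bases inside the member region. Fbxo11, Hexa, Mtx3, Uba1 and Zbtb34 had members in all 3 populations; Pqbp1 had the member with the highest score rank in CD24low and CD24hi, and Fbxw17 and Mxd3 were among the highest-ranked of the other pairs. The windows lie at chr17:88066046-88066295 on the minus strand (Fbxo11), chr9:59539290-59539539 plus (Hexa), chr13:92844518-92844767 plus (Mtx3), chrX:20658052-20658301 plus (Uba1), chr2:33431325-33431574 minus (Zbtb34), chrX:7899270-7899519 minus (Pqbp1), chr13:50417614-50417863 plus (Fbxw17) and chr13:55329732-55329981 minus (Mxd3).
Fbxo11: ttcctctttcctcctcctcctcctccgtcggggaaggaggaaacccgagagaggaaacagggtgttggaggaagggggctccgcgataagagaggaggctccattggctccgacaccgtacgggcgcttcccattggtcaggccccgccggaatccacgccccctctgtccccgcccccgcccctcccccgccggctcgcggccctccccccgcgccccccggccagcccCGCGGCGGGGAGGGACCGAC
Hexa: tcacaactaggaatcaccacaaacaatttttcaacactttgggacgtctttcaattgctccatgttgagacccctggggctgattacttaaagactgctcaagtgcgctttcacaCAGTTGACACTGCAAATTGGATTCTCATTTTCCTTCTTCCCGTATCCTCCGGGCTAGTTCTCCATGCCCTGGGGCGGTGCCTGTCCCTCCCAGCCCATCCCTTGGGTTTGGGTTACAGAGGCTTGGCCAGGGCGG
Mtx3: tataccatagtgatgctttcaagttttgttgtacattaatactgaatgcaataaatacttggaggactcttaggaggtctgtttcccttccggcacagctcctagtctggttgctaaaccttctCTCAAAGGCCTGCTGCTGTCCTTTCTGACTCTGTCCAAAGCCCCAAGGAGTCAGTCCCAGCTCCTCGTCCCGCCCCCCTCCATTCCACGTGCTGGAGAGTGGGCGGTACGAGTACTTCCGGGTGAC
Uba1: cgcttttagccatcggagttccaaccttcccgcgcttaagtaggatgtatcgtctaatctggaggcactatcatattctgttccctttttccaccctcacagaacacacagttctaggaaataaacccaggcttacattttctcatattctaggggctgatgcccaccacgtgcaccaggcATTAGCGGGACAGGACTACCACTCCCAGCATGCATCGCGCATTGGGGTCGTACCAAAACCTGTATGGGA
Zbtb34: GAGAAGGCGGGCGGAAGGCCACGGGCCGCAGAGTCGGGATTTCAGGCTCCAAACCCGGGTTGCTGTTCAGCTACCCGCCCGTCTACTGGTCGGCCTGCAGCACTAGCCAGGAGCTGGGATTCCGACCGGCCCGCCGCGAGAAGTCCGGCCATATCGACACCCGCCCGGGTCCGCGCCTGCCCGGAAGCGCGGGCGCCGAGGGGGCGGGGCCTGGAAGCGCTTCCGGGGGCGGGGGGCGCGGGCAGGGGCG
Pqbp1: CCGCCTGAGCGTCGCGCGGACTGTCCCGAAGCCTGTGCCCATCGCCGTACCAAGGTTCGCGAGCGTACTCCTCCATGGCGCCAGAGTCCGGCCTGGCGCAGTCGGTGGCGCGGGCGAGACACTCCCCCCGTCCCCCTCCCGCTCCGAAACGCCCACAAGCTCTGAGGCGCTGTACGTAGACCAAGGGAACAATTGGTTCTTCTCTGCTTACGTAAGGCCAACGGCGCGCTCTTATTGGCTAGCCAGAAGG
Fbxw17: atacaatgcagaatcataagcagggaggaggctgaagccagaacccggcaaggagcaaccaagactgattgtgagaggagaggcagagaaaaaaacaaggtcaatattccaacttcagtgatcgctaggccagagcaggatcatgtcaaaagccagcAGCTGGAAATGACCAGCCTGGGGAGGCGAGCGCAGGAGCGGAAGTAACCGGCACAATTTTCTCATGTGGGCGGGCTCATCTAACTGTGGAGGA
Mxd3: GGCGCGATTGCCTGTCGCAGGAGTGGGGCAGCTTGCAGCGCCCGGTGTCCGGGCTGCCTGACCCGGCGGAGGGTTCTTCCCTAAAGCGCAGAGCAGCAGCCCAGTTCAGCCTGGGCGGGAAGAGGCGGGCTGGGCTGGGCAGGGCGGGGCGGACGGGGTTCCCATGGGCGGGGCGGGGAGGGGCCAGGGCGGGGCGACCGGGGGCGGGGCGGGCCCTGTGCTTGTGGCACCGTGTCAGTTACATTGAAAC
The member covered all 250 bases shown at Zbtb34, Pqbp1 and Mxd3, 135 at Hexa, 126 at Mtx3, 93 at Fbxw17, 69 at Uba1 and 20 at Fbxo11. The 300-base windows that also take in 50 bases after the start had a GC content of 76.7% at Zbtb34, 71.7% at Fbxo11 and 71.0% at Mxd3, and 50.7% at Uba1, the lowest of the 8. Their CpG counts ran from 9 at Mtx3 to 42 at Zbtb34. The GC box letters GGGCGG were present at all of them except Uba1 and Pqbp1.

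Members were mostly shared by a pair of populations. CD24neg and CD24low alone shared 315 (45.3%), CD24low and CD24hi alone 245 (35.3%), and CD24neg and CD24hi alone 113 (16.3%), while 22 (3.17%) were G9ai-only in all 3. The same rule with the arms exchanged gave 1687 vehicle-only regions, 7.59% of 22237, of which 176 (10.4%) were in CD24neg and CD24low, 325 (19.3%) in CD24low and CD24hi, 1125 (66.7%) in CD24neg and CD24hi and 61 (3.62%) in all 3. The order of the pairs thus differed between arms, and so did the order of the list lengths: the CD24low lists are the longest of the G9ai lists and the shortest of the vehicle lists. The part of list length in the pair counts was not tested. Members held 452 (11.3%) of the G9ai-only regions of CD24neg, 583 (8.13%) of those of CD24low and 381 (14.2%) of those of CD24hi.

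For the members of a pair, the remaining population almost always had no listed peak in either arm. CD24hi had no peak at 314 of the 315 CD24neg and CD24low members, CD24neg at 244 of the 245 CD24low and CD24hi members, and CD24low at 111 of the 113 CD24neg and CD24hi members. The 4 exceptions were 1 region with peaks of both arms in CD24hi and 3 regions with a peak in part of 1 arm. Vehicle-only regions there were barred by the rule, and a G9ai-only region there would have placed the member among those of all 3 populations. Only regions with peaks of both arms or of part of 1 arm could therefore appear, and such regions were few. They numbered 105 and 27 of 15687 in CD24hi, 86 and 73 of 12957 in CD24neg and 18 and 279 of 9969 in CD24low. Absence from these lists does not show closed chromatin, since a peak present in both arms is largely missing from them.

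Overlap between populations was set beside the overlap of vehicle-only regions of one population with G9ai-only regions of another. The rule used both, the first to form members and the second to leave regions out. The shares below cover all called regions, before any were left out, and are a description. Of the G9ai-only regions of CD24low, 5.77% overlapped a G9ai-only region of CD24neg, against 6.20% of the vehicle-only regions of CD24low. In the G9ai-only regions of CD24neg, CD24hi placed 5.53% of its G9ai-only and 4.10% of its vehicle-only regions. In the G9ai-only regions of CD24low, CD24neg placed 10.3% of its G9ai-only and 7.06% of its vehicle-only regions, and CD24hi 11.3% and 7.62%. In those of CD24hi, CD24neg placed 3.69% and 3.12%, and CD24low 4.22% and 4.0%. The G9ai-only share was the higher in 5 of the 6 directions. G9ai-only regions were also the wider ones, with medians of 187 to 211 bp against 141 to 167 bp for vehicle-only regions. A region spans the merged peaks of all lists of its arm, and CD24neg and CD24hi have fewer vehicle than G9ai lists. In CD24low, with as many lists in either arm, the medians were 211 and 167 bp. Before merging, median peak widths were 140 to 183 bp in the G9ai lists and 129 to 149 bp in the vehicle lists. The part of merging in the width gap was not tested. By midpoints, the pairs ran from 3.41% and 3.03% to 10.5% and 7.28%. The vehicle-only share was then the higher for CD24low in CD24neg, at 5.45% and 5.92%, and for CD24low in CD24hi, at 3.93% and 3.96%. The 6 directions share lists, so no test was made.

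**Figure D1:**
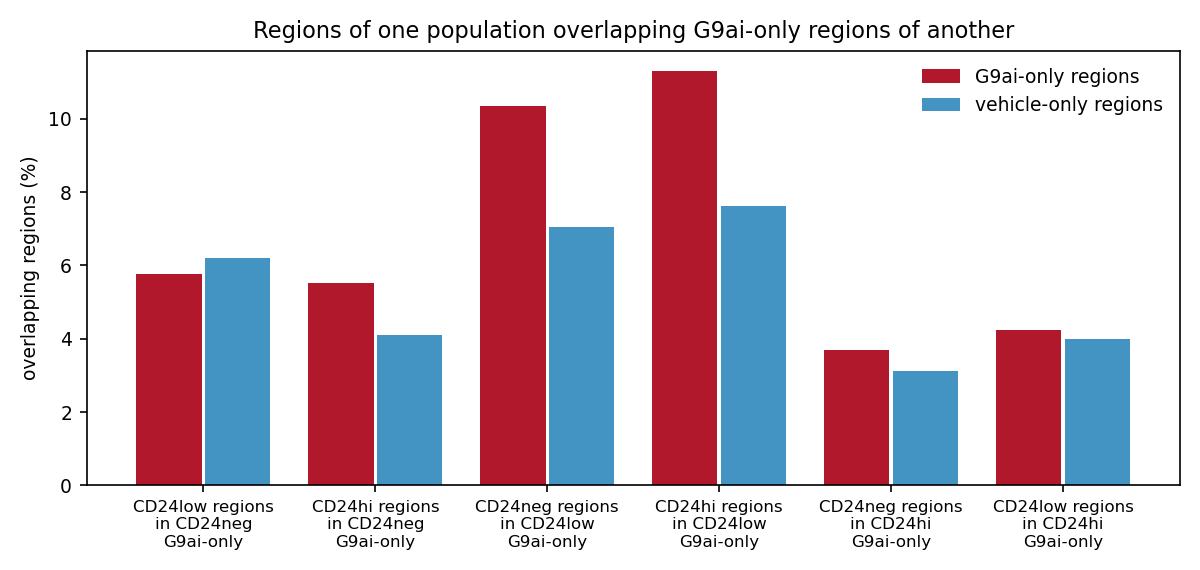
Share of a population's G9ai-only (red) and vehicle-only (blue) regions, in percent, that overlap a G9ai-only region of another population, for the 6 ordered pairs. The G9ai-only bar is the taller in every pair except CD24low regions in CD24neg, at 5.77% and 6.20%.

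The 22 regions that were G9ai-only in all 3 populations lay near genes of varied function. Scores below are the authors' peak scores for G9ai replicates 2 and 3, on a scale that is not given, so they are not a fold change, and an order between populations is an order of listed numbers only; no vehicle list had a peak at these regions. The highest mean rank was at chr11:116138482-116139105, over an end of Mrpl38, which encodes a protein of the large mitochondrial ribosomal subunit. Its scores were 113 and 493 in CD24neg, 330 and 87 in CD24low and 144 and 77 in CD24hi, so the replicates of CD24neg and of CD24low differed widely. At Pla2g6, a calcium-independent phospholipase A2, the region chr15:79313973-79314224 scored 106 and 54 in CD24neg, 129 and 106 in CD24low and 194 and 210 in CD24hi, where it was the strongest. At Fbxo11, the F-box subunit of a ubiquitin ligase, chr17:88065870-88066065 scored 104 and 96 in CD24neg, 81 and 152 in CD24low and 111 and 127 in CD24hi. Its 6 scores lay within a narrower range than those of Mrpl38 or Pla2g6.

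Further regions of all 3 populations lay at genes of protein turnover, RNA decay and organelles, a grouping made after the genes were seen. The region at Uba1, the E1 enzyme that activates ubiquitin, scored 49 and 82 in CD24neg, 57 and 51 in CD24low and 224 and 148 in CD24hi. Arel1, a ubiquitin ligase, had 62 and 67, 65 and 59, and 132 and 134 in the same order of populations. Both were highest in the 2 CD24hi libraries, without overlap with the other populations. Dis3l, a cytoplasmic exosome ribonuclease, had 109 and 103, 235 and 73, and 49 and 99, and Mtx3, a metaxin of the mitochondrial outer membrane, 111 and 93, 85 and 52, and 76 and 141. A region near Tmem202 and Hexa, which encodes the alpha subunit of lysosomal beta-hexosaminidase, had 74 and 92, 108 and 82, and 61 and 164. At these 3 genes no population stood apart from both of the others. Ppm1b, a metal-dependent protein phosphatase, had 55 and 96, 140 and 65, and 129 and 95. Zbtb34, a zinc finger protein with a BTB domain, had 57 and 103, 64 and 101, and 46 and 56, and Epb41l1, a membrane skeleton protein of the 4.1 family, 77 and 56, 87 and 44, and 71 and 93. At Zbtb34 both CD24hi scores were the lowest, while at Ppm1b and Epb41l1 the populations overlapped.

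Genes of signalling, adhesion and transcription were also among them. At Tnc, which encodes the matrix protein tenascin C, chr4:63982447-63982739 scored 113 and 101 in CD24neg, 76 and 75 in CD24low and 55 and 107 in CD24hi. At Fat3, an atypical cadherin, the scores were 46 and 123, 98 and 86, and 76 and 46. At Runx1, a transcription factor known for its role in blood formation, chr16:92698751-92698902 lay inside the gene span, 97285 bp from its nearer end, and scored 80 and 104, 59 and 56, and 68 and 88. At Runx1 both CD24low values were below all others, and at Fat3 the populations overlapped. The region near Tradd, an adaptor of TNF receptor signalling, and Fbxl8, an F-box protein, scored 80 and 90, 52 and 63, and 76 and 95, again with both CD24low values the lowest. Rbm47, an RNA-binding protein active in splicing and RNA editing, had 86 and 71, 71 and 53, and 76 and 77. Some of these genes also held vehicle-only regions. In CD24neg, CD24low and CD24hi these numbered 1, 1 and 8 at Runx1 and 3, 1 and 8 at Rbm47. They numbered 2, 0 and 3 at Fat3 and 0, 0 and 1 at Fbxl8. Of the regions with no gene within 1000 bp, the nearest gene ends were those of Nrarp at 12092 bp, Ripk4 at 21355 bp, Coro2b at 3826 bp and Map4k3 at 25803 bp. Nrarp encodes a feedback inhibitor of Notch signalling, and its region scored 120 and 153 in CD24neg, 119 and 60 in CD24low and 70 and 105 in CD24hi. The remaining 2 of the 22, at Eif3b and Celf2, had lower mean ranks and are named here after their values were seen.

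**Figure D2:**
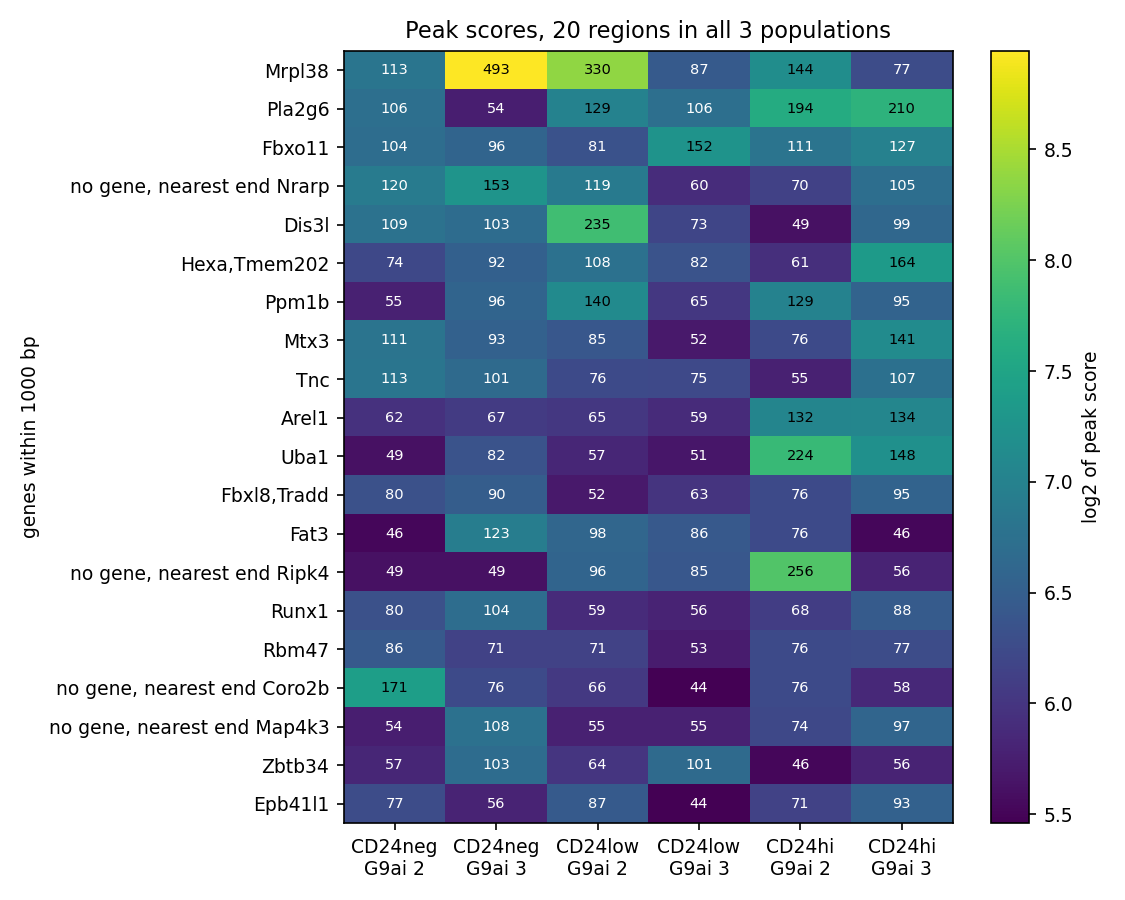
Peak scores of the 20 highest-ranked regions that were G9ai-only in all 3 populations (rows, named by genes within 1000 bp or the nearest gene end), in the 6 G9ai libraries (columns). Colour is the log2 of the score and the number is the score itself; the highest is 493 at Mrpl38 in CD24neg replicate 3, against 113 in replicate 2.

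Among regions of CD24neg and CD24low, the highest mean rank near a gene was at Fbxw17, an F-box and WD repeat gene, where chr13:50417771-50417955 scored 181 and 126 in CD24neg and 153 and 106 in CD24low. Dph5, a methyltransferase of diphthamide synthesis, scored 282 and 182 and then 100 and 113, so both CD24neg values were above both CD24low values. Cluap1, an intraflagellar transport protein needed for cilia, scored 98 and 122 in CD24neg and 158 and 91 in CD24low. Kdm2b, a demethylase of H3K36 that recruits a Polycomb complex to CpG islands, scored 86 and 162, then 121 and 110, at chr5:122989138-122989389. In both of these genes the 2 populations overlapped. Zmiz1, a transcriptional coactivator, had 75 and 190, then 120 and 128; Nsmaf, Homer2 and the Dydc1 and Dydc2 region completed the 8 named, with scores from 84 to 156.

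The pair of CD24low and CD24hi held the member with the highest rank of all. At chrX:7899165-7899715, near Pqbp1, a splicing-linked polyglutamine-binding protein, and Timm17b, a subunit of the mitochondrial inner membrane translocase, scores were 568 and 417 in CD24low and 480 and 490 in CD24hi. The mean percentile was 99.8 over the 4 libraries. At Scnn1b, the beta subunit of the epithelial sodium channel that sets airway surface liquid, chr7:121890619-121891008 scored 146 and 92 in CD24low and 113 and 208 in CD24hi. Map3k5, a stress-activated kinase, had 191 and 117, then 228 and 101, and Gna12, a G protein alpha subunit, 217 and 105, then 118 and 135. Replicates differed as much as the populations did at these genes. Gramd2, Zdhhc1, Frg1 and Itpkb were the others, with scores from 92 to 280.

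Among regions of CD24neg and CD24hi, the highest mean rank near a gene was at Krt18, the simple-epithelium keratin that pairs with Krt8. Its region, chr15:102028986-102029078, lay 770 bp inside one end of the gene span and scored 133 and 144 in CD24neg and 184 and 153 in CD24hi, with no listed CD24low peak of either arm; both CD24hi values were above both CD24neg values. Mxd3, a MAX-binding repressor of MYC targets, scored 156 and 90 in CD24neg and 120 and 247 in CD24hi. Slc6a8, the creatine transporter, had 98 and 137, then 103 and 139, and Ptprm, a receptor tyrosine phosphatase of cell contacts, 216 and 76, then 115 and 139. Neither separated the populations. Gramd3, Zfp292, Mab21l4 and the region near Mylpf and Tbc1d10b had scores from 83 to 190.

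Lists of genes for lung cell types and pathways were searched for members within 1000 bp of the gene span. Of 21887 protein-coding genes, 487 (2.23%) had a member, and of 384 matched list genes 10 did. The pan-epithelial list held 3 of 22 (13.6%): Krt18 above, Cdh1, which encodes E-cadherin, and Klf5, an epithelial transcription factor. Cdh1 scored 107 and 75 in CD24neg and 97 and 74 in CD24low at chr8:106640804-106641210, and Klf5 scored 104 and 94 in CD24low and 92 and 102 in CD24hi at chr14:99309684-99309907. All 3 genes of this count were called in different pairs of populations, and the count fell to 1 without any single population or with every list cut to the length of the shortest. Lists with 1 gene were club cells (Por, the electron donor of cytochrome P450 enzymes, 1 of 24), multiciliated cells (Mcidas, a driver of multiciliogenesis, 1 of 36), alveolar type 2 cells (Lpcat1, of surfactant lipid synthesis, 1 of 22) and Wnt, Notch and progenitor genes (Notch1, 1 of 30). Others with 1 gene were H3K9 and DNA methylation (Dnmt3a, a de novo DNA methyltransferase, 1 of 25), imprinted genes (Gnas, 1 of 18) and interferon genes (Ddx58, the RIG-I sensor, 1 of 21). With 1 gene a list, these shares cannot be set apart from 2.23%.

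No member lay near any of the 5 sort marker genes or of 12 goblet and mucin, 22 alveolar type 1, 16 basal, 14 neuroendocrine, 22 germline, 20 endothelial, 25 immune, 22 mesenchymal, 6 mesothelial or 30 housekeeping genes. At the background share, lists of these lengths would hold few genes or none. G9ai-only regions of any single population were more frequent, at 25.4% of all genes; they were near 20 of 36 multiciliated, 13 of 24 club and 15 of 30 Wnt, Notch and progenitor genes. They were also near 9 of 22 alveolar type 1, 9 of 22 alveolar type 2 and 8 of 22 pan-epithelial genes. Among lists of other cell types they were near 4 of 12 goblet and mucin, 4 of 14 neuroendocrine, 2 of 6 mesothelial and 5 of 16 basal genes. The counts were 6 of 20 endothelial, 4 of 22 mesenchymal and 3 of 25 immune genes, and 1 of 5 sort marker genes. The remaining lists had 7 of 30 housekeeping, 4 of 22 germline, 6 of 25 H3K9 and DNA methylation, 6 of 18 imprinted and 6 of 21 interferon genes. Vehicle-only regions of any population were near 35.4% of all genes. Genes with G9ai-only regions but no member had a median length of 39238 bp, against 17169 bp for all protein-coding genes. The part of gene length in these counts was not tested.

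Mcidas scored 95 and 105 in CD24neg and 184 and 53 in CD24low, within a gene span that held no vehicle-only region of any population. Por, by contrast, scored 68 and 69 in CD24neg and 92 and 127 in CD24low and also held 3, 1 and 2 vehicle-only regions in CD24neg, CD24low and CD24hi. Notch1, a receptor that steers airway cells between secretory and multiciliated fates, scored 101 and 76 in CD24neg and 93 and 80 in CD24low at chr2:26483309-26483879, beside 1 vehicle-only region in CD24neg, 0 in CD24low and 2 in CD24hi. Dnmt3a scored 63 and 111 in CD24neg and 107 and 53 in CD24low, beside 1 vehicle-only region in CD24hi. Lpcat1 scored 69 and 55 in CD24neg and 75 and 322 in CD24hi, a wide replicate gap, beside 4 vehicle-only regions in CD24neg. Gnas scored 88 and 116 in CD24neg and 98 and 77 in CD24hi, beside 1 vehicle-only region in CD24low and 2 in CD24hi. Ddx58 scored 132 and 100 in CD24neg and 71 and 72 in CD24low, beside 2 vehicle-only regions in CD24neg. Of the 10 list genes, Mcidas and Krt18 held no vehicle-only region.

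A gene with a member often held vehicle-only regions too. Of the 487 genes, 358 (73.5%) also had a vehicle-only region of some population within 1000 bp of their span, against 3379 of the 5080 genes (66.5%) that had G9ai-only regions but no member. Over all protein-coding genes the share was 35.4%. Gene length moved in the same order, with medians of 60465 bp, 39238 bp and 17169 bp, and its part in these shares was not tested. Of the genes with members, 468 had 1, 16 had 2 and 3 had 3.

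Bach2, Dcdc2a and Gramd3 were the genes with 3 members. Bach2 encodes a transcriptional repressor known from lymphocytes, and its members scored 62 and 53 in CD24neg and 121 and 98 in CD24low, 71 and 73 and then 170 and 67 in the same pair, and 58 and 55 in CD24low with 114 and 80 in CD24hi. At Dcdc2a, a doublecortin-domain protein that binds microtubules in cilia, all 3 members were shared by CD24neg and CD24low, and the one over a gene end scored 45 and 164 in CD24neg and 73 and 82 in CD24low. The gene span held no vehicle-only region in CD24neg or CD24low and 1 in CD24hi. Gli3, a transcription factor of Hedgehog signalling, had a CD24neg and CD24hi member with scores of 109 and 121, then 51 and 63, and a CD24neg and CD24low member with 118 and 76, then 66 and 87. Glis2, a related zinc finger factor, had 1 member over a gene end with 85 and 77 in CD24low and 86 and 238 in CD24hi. Vehicle-only regions in CD24neg, CD24low and CD24hi numbered 0, 1 and 4 at Gli3 and 2, 1 and 2 at Bach2. They numbered 0, 1 and 1 at Glis2 and 0, 1 and 0 at Gramd3. Arhgef3, Cmip, Fbxl8, Gabpb1 and Gna12 also had 2 members each, with scores from 40 to 217.

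Members seldom clustered. The median gap between neighbours was 1640720 bp and 11 neighbouring pairs lay within 10000 bp, among them a pair 64 bp apart at Hexa and Tmem202 and a pair 228 bp apart in Gabpb1, an ETS-family partner subunit. The overlap between populations within a member was at least 40 bp, with a median of 168 bp and a largest value of 611 bp, so no member rested on an overlap of 10 bp or less. Outside the rule, 1 pair of G9ai-only regions of different populations missed it with a gap of 0 to 10 bp. By chromosome, members were 8.73% of the merged G9ai-only regions on chromosome X (24 of 275) and from 3.90% to 6.46% on the autosomes.

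Position relative to genes was not used by the rule. Of the 695 members, 67 (9.64%) lay over an end of a protein-coding gene, 90 (12.9%) within 1000 bp of one, 315 (45.3%) elsewhere in a gene span and 223 (32.1%) outside genes. The share near an end, over it or within 1000 bp, was 22.6% (95% Wilson interval 19.6% to 25.8%, counting error only), and a gene end here is either end of the span. It was 50% for the 11 of 22 members in all 3 populations (30.7% to 69.3%), 30.1% for CD24neg and CD24hi (22.4% to 39.1%), 20.3% for CD24neg and CD24low and 19.6% for CD24low and CD24hi. Of 671 members outside chromosome 18, where starts are not listed, 125 (18.6%) were within 1000 bp of a listed transcription start and 58 (8.64%) lay over one.

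Compared within a population, members were near a gene end more often than the other G9ai-only regions in all 3, by an amount that differed between them. The share was 24.6% of member and 17.4% of other regions in CD24neg, 21.1% and 16.5% in CD24low, and 23.6% and 22.8% in CD24hi, where the Wilson intervals overlapped (19.6% to 28.1% and 21.1% to 24.6%). The difference averaged 4.19 ± 3.20 percentage points (SD, n = 3 populations), with an exact two-sided sign-flip permutation p of 0.25, the smallest that 3 populations can give. Populations share members, so they are not fully independent. With CD24neg left out of the rule the difference in CD24hi was -0.656 points, and with CD24low left out the mean was 11.6 points. Member regions were also slightly wider, at medians of 201.5, 217 and 214 bp against 189, 211 and 183 bp. Vehicle-only regions were near a gene end in 15.2% in CD24neg, 24.6% in CD24low and 14.5% in CD24hi, and the vehicle-only regions shared by several populations in 19.5%. For position inside a gene span, member minus other was 5.10, 6.23 and -3.18 percentage points in CD24neg, CD24low and CD24hi, with an exact permutation p of 0.5 (n = 3 populations, two-sided).

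**Figure D3:**
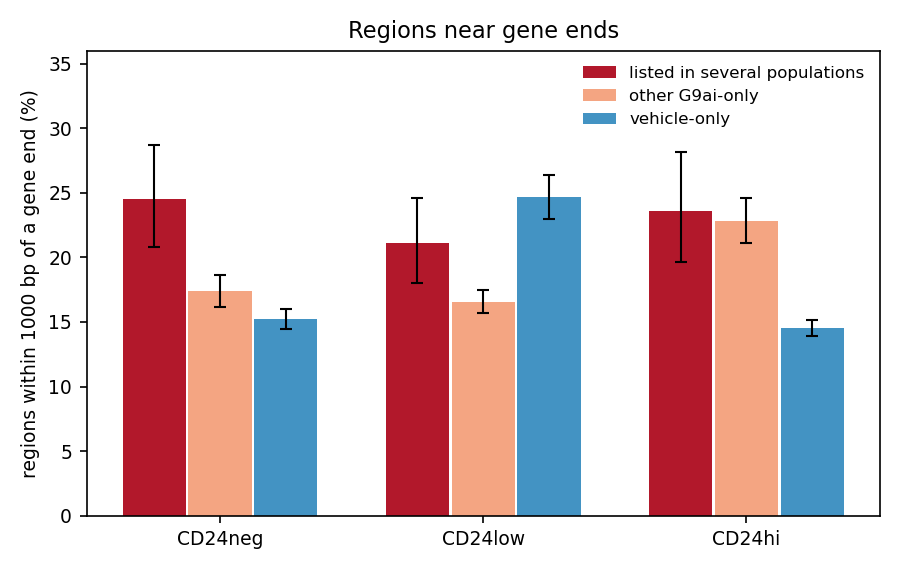
Percent of regions over or within 1000 bp of a protein-coding gene end, for regions listed with inhibitor in several populations (red), other G9ai-only regions (orange) and vehicle-only regions (blue) of each population; bars of error are 95% Wilson intervals for counting error. Red stands above orange by 7.18 points in CD24neg, 4.56 in CD24low and 0.823 in CD24hi.

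The median distance to the nearest gene end was 11372 bp for members, and 2250 bp for those in all 3 populations, 7016 bp for CD24neg and CD24hi, 12259 bp for CD24neg and CD24low and 11998 bp for CD24low and CD24hi. Other G9ai-only regions had medians of 12690 bp in CD24neg, 14092.5 bp in CD24low and 8913 bp in CD24hi, and the vehicle-only regions of several populations 9438.5 bp. A total of 54 members (7.77%) lay over 100000 bp from any gene end. In the plot of distances, members are merged over populations and so wider than the regions of 1 population, which raises the share at 0 bp by construction.

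**Figure D4:**
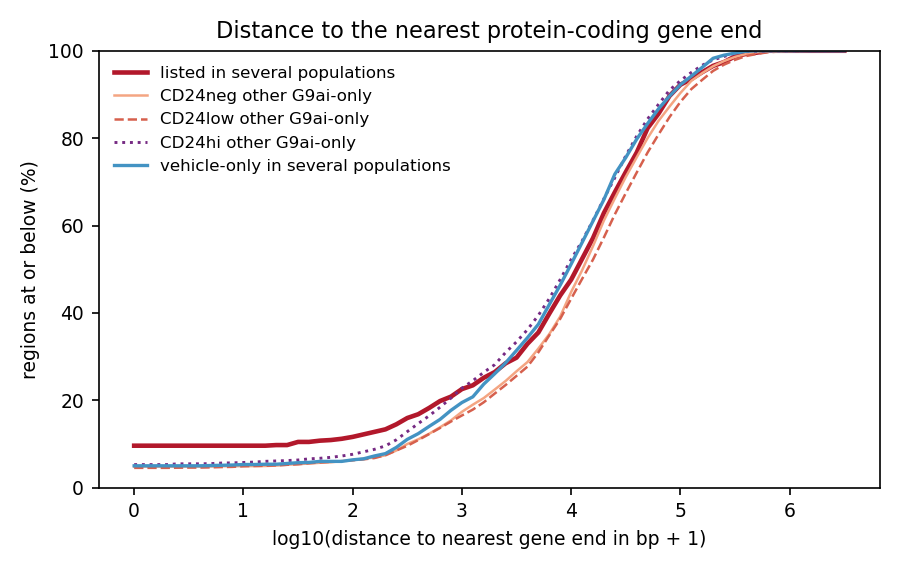
Cumulative percent of regions (vertical axis) by distance to the nearest protein-coding gene end on a log10 scale of bp + 1 (horizontal axis), for members (thick red), other G9ai-only regions of each population and vehicle-only regions of several populations (blue). Members start highest, at 9.64% over a gene end, and medians run from 8913 to 14092.5 bp.

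Sequence at promoters was described for the 82 listed windows, of 72 genes, that 69 members overlapped. Their median GC content was 60.7%, against 61.3% in 943 windows with other G9ai-only regions, 60.3% in 1228 windows with vehicle-only regions and no member, and 56.3% in all 21263 windows. The median CpG count was 20.5 against 21, 18 and 13. Member windows were thus close to those of other listed regions and richer in GC than promoters at large. In the same order, GGGCGG (GC box) was in 62.2%, 63.4%, 56.9% and 46.2% of windows, CCAAT in 34.1%, 27.6%, 26.8% and 38.2%, and TATAAA in 2.44%, 7.0%, 8.79% and 12.6%. CCGGAAG (ETS) was in 17.1%, 15.4%, 10.2% and 11.6%, CACGTG (E-box) in 13.4%, 11.9%, 11.2% and 7.84%, and TGANTCA (AP-1) in 9.76%, 4.77%, 6.27% and 6.99%, the last in 8 member windows. The NRF1 motif, GCGCA followed directly by TGCGC, was in 4.88%, 1.91%, 1.95% and 1.33%, or 4 member windows, TGACGTCA (CRE) in 1.22%, 3.61%, 2.44% and 2.23%, AAGATGGC (YY1) in 2.44%, 4.24%, 3.01% and 3.05%, and TGTGGTT (RUNX) in 2.44%, 2.76%, 3.50% and 4.71%. Both strands were searched, none of the 10 motifs contains another, and a match is a description of letters, not a bound site. Matches were counted over the whole window, whether or not the member covered them, so the shares do not describe the open stretch alone. Before the start, the AP-1 letters at Dtnb, Harbi1, Diras2, Mab21l4 and Shroom4 lie outside the member. Those at Sphk1 lie inside it. Windows can overlap, so the same site can be counted more than once. The NRF1 windows were those of Tia1, Pigp and Ttc3, and the overlapping Pigp and Ttc3 windows share a match that lies outside the member. Windows sharing a match were also counted for other motifs, for example for AP-1 at Dtnb and at Sphk1, and for RUNX at Lrrc34 and Lrriq4. Further examples were CCAAT at Mab21l4 and at Pqbp1 and Timm17b, and the E-box at Pigp and Ttc3. That E-box match lies outside the member.

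Peak scores of members were middling within their lists. Median scores were 79 and 90 in CD24neg, 87 and 65 in CD24low and 88 and 93.5 in CD24hi, over a range of 39 to 690. The rank of members against other G9ai-only regions differed by population: the median percentile was 54.1 and 54.4 against 50 and 49.5 in CD24neg, 45.6 and 47.6 against 50.6 and 50.7 in CD24low, and 52.5 and 58.8 against 49.0 and 48.4 in CD24hi. Members thus ranked above the rest in both G9ai libraries of CD24neg and CD24hi and below them in both of CD24low, which has the longest G9ai lists. Between populations, the scores of shared members were weakly alike, with Spearman's rho of 0.105 for CD24neg and CD24low (337 members), 0.151 for CD24neg and CD24hi (135) and 0.104 for CD24low and CD24hi (267). Replicate lists of 1 population gave 0.228, 0.182 and 0.283 in CD24neg, CD24low and CD24hi, so replicates too ordered the members only loosely. These correlations run across regions of the same libraries and are descriptions.

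**Figure D5:**
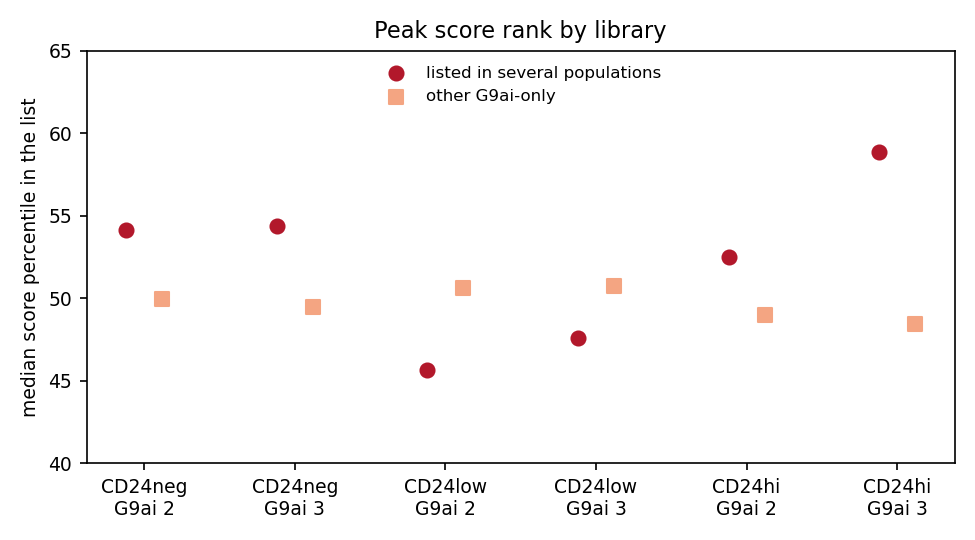
Median score percentile within each G9ai list (vertical axis, from 40 to 65) of regions listed in several populations (red circles) and of the other G9ai-only regions (orange squares). Circles lie above squares in CD24neg and CD24hi and below them in CD24low, from -4.99 in CD24low replicate 2 to 10.4 points in CD24hi replicate 3.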

How the data were processed

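ATAC-seq peak lists of 10 libraries were analysed. FastQC, Bowtie2 and MACS2 and the build mm10 are named in the submitters' processing notes; versions, settings and the way in which the lists were narrowed to one treatment are unstated in the sources used here. Peaks were called per library, per the names in the deposited files. The score column is the authors' peak score as deposited, on a scale that is not given, and was used only as a value within a list and as a rank. No counts come with the lists, so depth is unknown and no interval covers it. Groups came from the sample labels.

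Repeated lines (47 to 472 a list) were dropped, peaks of a population were merged at 1 bp overlap, and regions were called as described above with Python 3.11.15, numpy 2.4.6 and scipy 1.17.1; figures used matplotlib 3.10.9. The procedure was tested on simulated lists with planted shared regions. Genes were 21887 protein-coding spans of RefSeq on GRCm38.p6, without exons; a strand and start were listed for 17492, none on chromosome 18. Gene lists had 389 names, of which 384 matched. The members and lists were chosen with earlier results of these data known. Named members followed a rule: up to 20 in all 3 populations, 8 per pair by mean score percentile near a gene, list genes, and up to 10 genes with several members, leaving out Gm, Olfr and Rik symbols. Wilson intervals are at 95%. Alternatives included other overlaps, score cuts, list lengths, windows and left-out libraries or populations. Replicates in the lists are nearly the same regions, so they do not show the spread between mice.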

Additional observations from a re-analysis of the deposited data

Results flagged for a closer look

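The rank of members differed in direction between populations, in every library of each. The median score percentile of members minus that of other G9ai-only regions was 4.17 and 4.92 points in CD24neg (G9ai replicates 2 and 3) and 3.48 and 10.4 points in CD24hi, against -4.99 and -3.1 points in CD24low. The difference between populations was not tested.

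The share of peaks inside a gene span also took opposite directions. Members minus other G9ai-only peaks came to 5.53 and 4.74 percentage points in CD24neg and 5.68 and 4.74 points in CD24low, against -2.76 and -2.66 points in CD24hi. This difference was not tested either, and replicate lists hold nearly the same regions.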

How the results depend on the processing

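The number of members depended most on how many peaks entered. The higher-scoring 50% of each list gave 77 members, of which 73 were among the 695, and lists cut to the 2552 highest-scoring peaks gave 123, of which 113 were; fewer peaks entered by construction. Regions in all 3 populations then numbered 0 and 1, and the share near a gene end was 29.9% and 30.9%. Leaving out CD24neg, CD24low or CD24hi gave 300, 146 and 410 members, and without CD24low the share near a gene end was 32.2%. That share was 18.3% within 500 bp, 35.5% within 5000 bp and 18.6% for listed starts only.

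Without G9ai replicate 2 or replicate 3 of every population there were 688 and 689 members, 679 and 677 of them among the 695, and 25 and 23 in all 3 populations; without either CD24low vehicle replicate there were 695. An overlap of 50% of the shorter region gave 691, allowing vehicle-only overlap 819, and barring any vehicle peak 694. The mean member minus other difference near gene ends stayed above 0 in every alternative run, from 2.01 to 11.6 points; in CD24hi alone it was -2.66 points within 5000 bp and -0.656 points with CD24neg left out, where the exact permutation p was 1. The pan-epithelial genes with a member numbered 2 with the higher-scoring 50% of peaks and 1 with cut lists or without any 1 population. The midpoint alternative was chosen after seeing the data.

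No paired analysis was possible because G9ai and vehicle lists hold separate sets of regions and members exist in G9ai lists by the rule. The comparison of GC content of whole regions was not run, since no genome sequence was used. List selection, unknown depth and 1 vehicle library in CD24neg and in CD24hi limit every call: a peak open in both arms is largely missing.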

Other observations

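No listed miRNA overlapped a member, and 14 lay within 10000 bp of one, 12 of them with a listed hairpin and the others by their mature arms. The nearest hairpins were that annotated as Gm51288 at 236 bp, Mir1191b at 293 bp and Mir8104 at 940 bp. Mir449a, of a miRNA family known from multiciliated cells, lay 8995 bp from a member and a mature arm of Mir125b-2 lay 3720 bp from one. These were named after the distances were seen.

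Some of the highest-ranked members had no gene within 1000 bp, and these too were picked by their values. The highest mean percentiles among them were 96.0 at chr14:43930407-43930767, 6811 bp from an end of Ear10 and shared by CD24low and CD24hi, and 95.8 at chr6:143425233-143425741, 216687 bp from an end of Etnk1 and shared by CD24neg and CD24low. The next, 93.3 at chr19:56651999-56652434 and 92.6 at chr10:117494159-117494809, lay 48496 bp from an end of Nhlrc2 and 117161 bp from one of Cpsf6, both shared by CD24neg and CD24hi.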
